A study of Mus musculus with 12 samples.

Results

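The heat shock proteins and their DNAJ co-chaperones were followed in mouse bone marrow LSK cells of 4 genotypes. Members were all genes of the deposited table whose symbol starts with Hspa, Hspb, Hspd, Hspe, Hsph, Hsp90 or Dnaj, without Hspa5, Hspbap1 and pseudogenes. This gave 71 of 37187 genes, 45 Dnaj genes and 26 Hsp genes. The rule uses symbols alone, and it was set with earlier results of these data known. Of the 71 members, 61 reached 10 units of normalised signal in 3 or more libraries and were tested. Dnajb8, Dnajc5b, Dnajc5g and Hspb3 were at 0 in all 12 libraries, and Dnajc22, Hspa12a, Hspa1l, Hspb1, Hspb2 and Hspb7 stayed below the filter, with 32.2 units of Hspb1 in dKO 3 as their highest value. Hspb9 passed the filter through the dKO libraries alone. Hspbp1, an exchange factor of Hsp70, and Hspb11, a part of the cilium transport machinery, are members by their symbol, although neither is a small heat shock protein in the usual sense.

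The genotypes were a Tet2 knockout (Tet2 KO), a Traf6 knockout (Traf6 KO), a double knockout of both genes (dKO) and the wild type (WT), with 3 libraries each. Tet2 encodes an enzyme that oxidises methylated cytosine in DNA, Traf6 encodes a ubiquitin ligase of Toll-like and interleukin-1 receptor signalling, and the series title ties TRAF6 to MYC in acute myeloid leukaemia. LSK cells lack lineage markers and carry Sca-1 and c-Kit, the gate for haematopoietic stem cells and multipotent progenitors. The deleted exons, the Cre driver if there was one, the age of the mice and whether the libraries of a genotype came from separate animals are not stated in the labels. The p-values therefore measure only how far these libraries spread, and that spread may be technical.

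Heat shock proteins are molecular chaperones that bind unfolded chains and help them to fold, assemble or be degraded. Hsp70 proteins do this in cycles of ATP use, in which a DNAJ protein delivers the client and starts ATP hydrolysis and a nucleotide exchange factor such as an Hsp110 resets the cycle, while Hsp90 acts later on kinases, receptors and other clients. Under heat or misfolded protein the factor HSF1 binds inverted repeats of nGAAn, the heat shock element, in front of a subset of these genes and raises their transcription, and other members are made at all times in a given compartment.

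The stretches below hold heat shock elements of the inducible genes on which the results turn, with Dnaja1, another inducible gene, beside them. In dKO against WT Hspa1b, Hspe1 and Hsph1 were called by limma, and Hspa1a, Hspd1 and Dnaja1 were not. The stretches are RefSeq promoter sequence on GRCm38.p6, 5′ to 3′ on the strand of the gene. Capitals mark the letters that match GAANNTTC or TTCNNGAA.
Hspa1b: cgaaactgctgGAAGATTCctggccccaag
Hspa1a: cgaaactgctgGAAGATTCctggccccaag
Hspe1: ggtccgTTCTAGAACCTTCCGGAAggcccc
Hspd1: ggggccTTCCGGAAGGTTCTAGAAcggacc
Hsph1: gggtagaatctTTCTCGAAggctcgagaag
Dnaja1: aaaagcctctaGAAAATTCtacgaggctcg
The Hspa1b stretch is chr17:34959324-34959353 and the Hspa1a stretch is chr17:34972242-34972271, both on the minus strand and both at -115 to -86 from the start of transcription. Their letters are the same, and the whole 300-base windows of the pair differ at 4 bases. The Hspe1 and Hspd1 stretches are chr1:55088053-55088082 read on the plus and on the minus strand, since these genes are transcribed away from each other over a shared element. The Hsph1 stretch is chr5:149636351-149636380 on the minus strand, and the Dnaja1 stretch is chr4:40722333-40722362 on the plus strand.

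Promoter windows, from 250 bases before to 50 after the start, were at hand for 57 of the 71 members. GAANNTTC or TTCNNGAA, each its own reverse complement and so read on both strands at once, stood in a window of 16 of these 57 members (28.1%), against 17% of 27025 genes and 15.1% of 32851 windows. Among members on a list of known HSF1 targets it stood in 9 of 11 with a window, all but Dnajb1 and Hspa4l. Among the other members it stood in 7 of 46 (15.2%). The list also holds Hsp90aa1, Hsp90ab1 and Hspa8, which had no window, and Hsp90ab1 and Hspa8 are made at all times. A longer form with 3 units, GAA and TTC in turn with any 2 bases between them, holds the shorter motif within it and was read on both strands. It stood in windows of Dnajb6, Hspd1, Hspe1 and Hsph1, or 7.02% of the 57, against 0.662% of all genes. In Hsph1 this longer form lay after the start, outside the printed stretch, which holds only the shorter motif. The printed stretches of Dnaja1, Hsph1 and the Hspd1 and Hspe1 pair overlap annotated exons. Hits are letters in a window and no evidence of a bound factor.

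Set per kilobase of the principal transcript, the highest mean signal in WT was 21596 for Hsp90ab1, the Hsp90 made at all times in the cytosol, 6724 for Hsp90b1, the Hsp90 of the endoplasmic reticulum, and 6507 for Hspa9, the mitochondrial Hsp70. Dnajc8, a J protein found with the spliceosome, followed with 3513, and Dnajc9, a J protein that binds histones, with 3440. These 5 genes held 53.2% of the summed per-kilobase level of all members in WT. As a share of each library's signal, members took 0.727% to 1.05% in dKO, 0.86% to 0.965% in Tet2 KO, 0.869% to 0.951% in Traf6 KO and 0.785% to 0.834% in WT, with the lowest and the highest share both in dKO.

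Several properties of the libraries stand beside every result. Reads recovered from the deposited signal numbered 22169673 to 53921402 per library. dKO 3 stood apart, with a normalised total of 39973892 against 25557760 to 28916082 in the other 11 libraries. Traf6 had 2474, 854 and 568 units in Traf6 KO, 799, 1313 and 967 in dKO and 3127, 1432 and 1776 in Tet2 KO, against 1935, 3006 and 2957 in WT. Tet2 had 668, 403 and 486 units in Tet2 KO, 326, 197 and 261 in dKO and 722, 339 and 427 in Traf6 KO, against 525, 783 and 740 in WT. The library labelled Traf6 KO 1 and the library labelled Tet2 KO 1 thus lay within WT for their targeted gene, and Tet2 was about as low in Traf6 KO as in Tet2 KO, so these totals do not set the single knockouts apart for Tet2. A deletion of a few exons need not show in gene totals. dKO and WT libraries held the Y-linked Eif2s3y at 2812 to 5669 units and Xist at no more than 17.0, while the Tet2 KO and Traf6 KO libraries held Xist at 990 to 3826 and, except for 1524 units in Traf6 KO 1, Eif2s3y at no more than 55.4. Sex and genotype therefore cannot be told apart in the comparisons of dKO with either single knockout or of a single knockout with WT, and the interaction carries the sex difference of both. All 12 LSK markers were detected, with sums of 95992 to 117401 in dKO and 151302 to 166620 in WT. Of these 7 were lower in dKO against WT, where 26.5% of all tested genes were lower and 21.9% higher. Kit, the gene of c-Kit, had 11935, 4099 and 4105 units in dKO, against 44484, 47837 and 47804 in WT. Ly6a, the gene of Sca-1, had 1968, 2446 and 13218 units in dKO, against 2339, 2205 and 1990 in WT. Of 9 neutrophil and monocyte progenitor markers 6 were higher in dKO against WT, with sums of 125720 to 205450 in dKO and 16143 to 29625 in WT. Of 6 tested mast cell and basophil markers 5 were higher in dKO, with sums of 5986 to 10450 in dKO and 1360 to 2214 in WT. Markers of T and NK cells (2 of 5 tested, sums 8759 to 50969 in dKO and 4055 to 5552 in WT), B cells (3 of 8, sums 7636 to 61844 in dKO and 6698 to 9768 in WT) and erythroid cells (3 of 11, sums 82844 to 119374 in dKO and 44452 to 55845 in WT) were also higher in part, as was 1 of 7 megakaryocyte markers, with 2 lower. By limma 0 of 8 mature neutrophil markers were called, and 0 had an unadjusted p under 0.05. Of 15 tested immediate early genes, which react within minutes to stress and handling, 11 were higher in dKO against WT, with sums over 16 genes of 75768 to 124636 in dKO and 17470 to 28335 in WT. The part of these differences in the results was not tested, and in bulk RNA fewer cells of a type and less RNA per cell cannot be told apart.

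The double knockout was set against WT to see what the loss of both genes did together. Of the 61 tested members 18 were higher and 13 lower in dKO by limma at an adjusted p under 0.05, against a background of 48.3% of all tested genes called, 21.9% higher and 26.5% lower. The share of members called was 50.8%, near that background, and 36 had an unadjusted p under 0.05. The median log2 change of the members was 0.05, against -0.09 over all tested genes. With libraries scaled to equal totals the split was 13 higher and 17 lower, and the split over all genes in that fit is not given here.

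**Figure D1:**
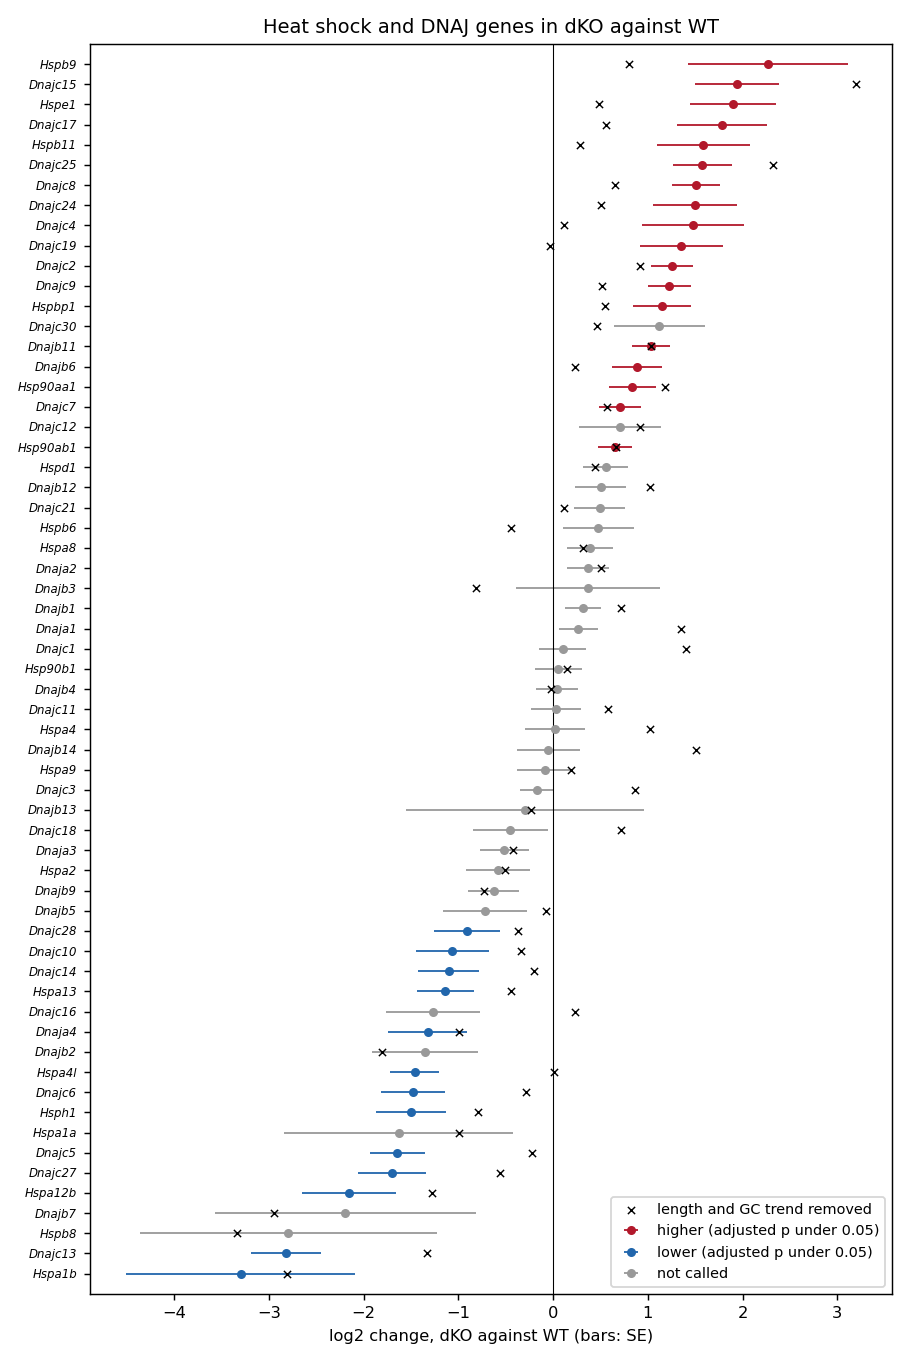
Log2 change in dKO against WT (x axis) of the 61 tested members (y axis), with bars of 1 SE. Red points are higher and blue points lower by limma at an adjusted p under 0.05, and grey points were not called. Crosses give the change after a trend on the length and GC content of the principal transcript was removed, and colours do not refer to them. The changes run from -3.30 for Hspa1b to 2.27 for Hspb9, and among the 31 called members the crosses lie nearer to 0 than the points except for Dnajc15, Dnajc25, Hsp90aa1 and Hsp90ab1.

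The direction of the members followed the length of their transcripts, as it did over all genes. The 18 higher members had a median principal transcript of 1599 nt and the 13 lower ones of 4229 nt, against 1545.5 and 4533 nt over all genes called higher and lower. Among members up to 1500 nt long 8 of 11 were higher and 0 lower in dKO, and over 3000 nt 3 of 27 were higher and 12 lower. Over all tested genes 1430 of 2579 were higher and 66 lower in the short class. In the long class 317 of 6343 were higher and 3214 lower. The median log2 change was 1.49 in the short class and -0.72 in the long class, against 1.40 and -1.09 over all tested genes of these lengths. With a trend on the length and GC content of the principal transcript removed in each library, 17 members were higher and 3 lower in dKO. The background was 25.3% of genes called, 1996 higher and 1463 lower of 13677. With the longest transcript in its place 16 members were higher and 4 lower, against 29.3% of genes called, 2292 higher and 1718 lower. In what follows, a value with the trend removed refers to the principal transcript.

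**Figure D2:**
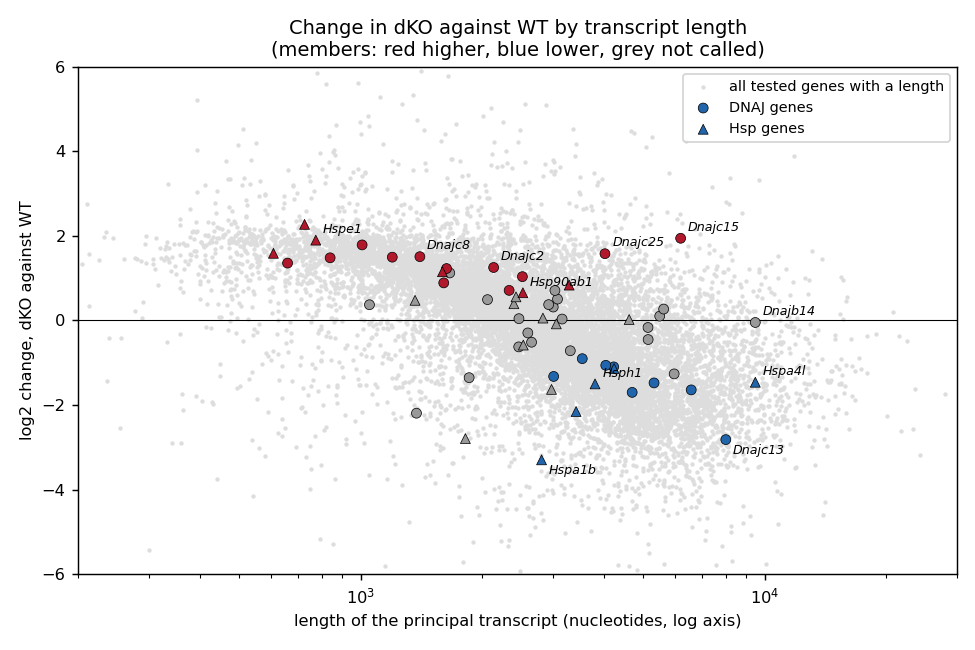
Log2 change in dKO against WT (y axis) by length of the principal transcript in nucleotides (x axis, log scale), for all tested genes with a length (small grey points), DNAJ members (circles) and Hsp members (triangles), coloured red where higher, blue where lower and grey where not called. Short transcripts lie above 0 and long ones below it, and Dnajc15 and Dnajc25 stand above genes of their length.

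The cytosolic Hsp90 genes were higher in dKO. Hsp90ab1 had 91731, 78488 and 86268 units in dKO, against 49058, 56067 and 58140 in WT. All 3 dKO libraries lay above all 3 WT libraries, a log2 change of 0.65 ± 0.18 (SE, n = 3 each, limma adjusted p 0.00912), and 0.66 with the trend removed. Its call was lost with equal library totals (0.40, adjusted p 0.108) and with the longest-transcript trend removed (0.46, adjusted p 0.0728). Hsp90aa1, the heat-induced partner, had 6305, 6151 and 11290 units in dKO, against 3666, 4622 and 4556 in WT, again without overlap and with dKO 3 far above the others. Its log2 change was 0.83 ± 0.25 (adjusted p 0.0152), 1.19 with the trend removed and 0.55 without dKO 3, and its call was lost without WT 1 (0.73, adjusted p 0.0572) and in a fit of dKO and WT alone (adjusted p 0.0572). Hsp90b1 had 25272, 24482 and 12346 units in dKO, against 17930, 18654 and 20399 in WT, so that dKO 3 lay below WT and the other dKO libraries above it (0.05 ± 0.25, adjusted p 0.873), and it passed no test with the trend removed (0.14, adjusted p 0.699).

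Among the Hsp70 genes no member was higher in dKO, and 3 of 7 tested were lower, against 26.5% of all tested genes lower. Hspa8, the Hsp70 made at all times in the cytosol, had 9504, 10097 and 6579 units in dKO, against 8108, 5630 and 6108 in WT, and the groups overlapped (0.39 ± 0.24, adjusted p 0.195, and 0.31 with the trend removed). Hspa9 had 29420, 19276 and 11345 units in dKO, against 17012, 19869 and 22640 in WT, with dKO libraries on both sides of WT (-0.08 ± 0.30, adjusted p 0.834, and 0.19 with the trend removed). Hspa13, an Hsp70 relative bound to membranes of the secretory route, had 1693, 1056 and 717 units in dKO, against 2791, 2140 and 2297 in WT. It was lower in dKO without overlap (-1.14 ± 0.30, adjusted p 0.00859), and at -0.45 with the trend removed it passed no test. Hspa12b, a distant Hsp70 relative known from endothelial cells, had 49.7, 90.0 and 152 units in dKO, against 262, 611 and 388 in WT. It was lower in dKO (-2.16 ± 0.49, adjusted p 0.00422), and at -1.28 with the trend removed its adjusted p was 0.0595. The 8 stromal and endothelial markers summed to 1242 to 3465 units in dKO and 3684 to 4580 in WT, and 2 of the 4 tested were lower in dKO, and their part in the result was not tested.

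The inducible pair Hspa1a and Hspa1b varied widely within dKO. Hspa1b had 14.1, 27.4 and 393 units in dKO, against 770, 417 and 497 in WT. dKO 3 lay just under the lowest WT library and far above the other dKO libraries. The log2 change of -3.30 ± 1.21 (adjusted p 0.0379) was lost by edgeR (-2.10, adjusted p 0.137), by DESeq2 (-1.92, adjusted p 0.234), without a filter on low values (adjusted p 0.0601), with the trend removed (-2.81, adjusted p 0.0976) and on leaving out dKO 1, dKO 2 or any WT library (-3.49 to -2.36, adjusted p 0.0698 to 0.121), and it was -4.72 without dKO 3. Hspa1a had 15.0, 44.4 and 415 units in dKO, against 271, 157 and 209 in WT, so the groups overlapped (-1.63 ± 1.21, adjusted p 0.281, and -0.99 with the trend removed). Both genes lie on chromosome 17 of GRCm38 (Hspa1b 34956436 to 34959238, Hspa1a 34969190 to 34972156), and as near-identical copies they can share reads, so the division of reads between them is uncertain.

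**Figure D3:**
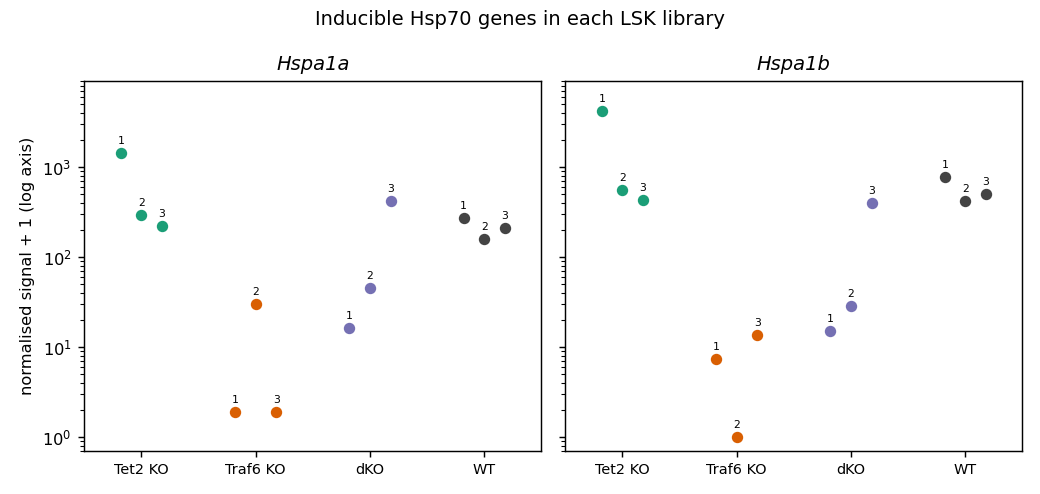
Normalised signal plus 1 (y axis, log scale) of Hspa1a (left) and Hspa1b (right) in each library of Tet2 KO, Traf6 KO, dKO and WT, with the replicate number above each point. All 3 Traf6 KO libraries lie under every WT library in both panels, and dKO libraries spread from 14.1 to 393 units of Hspa1b.

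The Hsp110 exchange factors divided. Hsph1, the heat-induced Hsp110, had 1704, 834 and 635 units in dKO, against 3048, 2357 and 2856 in WT, lower without overlap (-1.50 ± 0.37, adjusted p 0.00591) and at -0.79 with the trend removed (adjusted p 0.0835). Hspa4l had 1316, 1152 and 733 units in dKO, against 3183, 2671 and 2742 in WT, also without overlap (-1.46 ± 0.26, adjusted p 0.00104). Its principal transcript is 9479 nt long, the longest among the members, and with the trend removed its change was 0.01. Hspa4 had 14001, 9251 and 5185 units in dKO, against 6865, 8748 and 10722 in WT, with dKO 3 lowest and dKO 1 highest of all 6 (0.02 ± 0.31, adjusted p 0.964), and with the trend removed its change was 1.02 (adjusted p 0.0192).

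The mitochondrial chaperonin genes share the element printed with the other stretches and stand head to head on chromosome 1, and by limma Hspe1 passed the test and Hspd1 did not. Hspe1, the Hsp10 lid of the chaperonin, had 853, 1144 and 3237 units in dKO, against 534, 304 and 375 in WT. It was higher without overlap (1.90 ± 0.46, adjusted p 0.00531), with dKO 3 far above the rest (1.33 without it, adjusted p 0.0121). Hspd1, the Hsp60 barrel, had 10410, 8440 and 8314 units in dKO, against 5479, 6018 and 6963 in WT, likewise without overlap, and missed the threshold (0.56 ± 0.24, adjusted p 0.0674), though DESeq2 called it (0.58, adjusted p 0.0447), as did limma with the median log2 ratio set to 0 (0.62, adjusted p 0.0462). Their principal transcripts are 774 and 2423 nt long, and with the trend removed their changes were 0.48 (adjusted p 0.141) and 0.44 (adjusted p 0.194). The difference between the pair was not tested.

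Of the 5 tested Hspb-named genes 3 were higher in dKO and 0 lower, against 21.9% and 26.5% of all tested genes. Without Hspb9, which was tested only because it was high in dKO, 2 of 4 were higher, and over all members 17 of 60 were higher and 13 lower. Hspbp1 had 4985, 5807 and 12371 units in dKO, against 3148, 3231 and 3218 in WT, higher without overlap (1.15 ± 0.31, adjusted p 0.0094), 0.54 with the trend removed (adjusted p 0.0443), 0.49 and not called with the longest-transcript trend removed (adjusted p 0.0668), and 0.75 without dKO 3. Hspb11 had 200 units in dKO 1, 354 in dKO 2 and 819 in dKO 3, against 168, 122 and 103 in WT, and its log2 change of 1.59 ± 0.49 (adjusted p 0.0179) became 0.28 with the trend removed and was not called without dKO 3 (1.05, adjusted p 0.0655), WT 2 (1.55, adjusted p 0.054) or WT 3 (1.43, adjusted p 0.0666). Hspb9 had 11.3, 24.8 and 34.0 units in dKO, against 3.55, 4.57 and 2.89 in WT, a level near the filter, and its call (2.27 ± 0.84, adjusted p 0.0393) was lost in 10 of 19 alternatives, among them without dKO 3 (1.95, adjusted p 0.121) and with the trend removed (0.80, adjusted p 0.503). Hspb8 was at 0 in dKO 1 and dKO 2 and at 209 units in dKO 3, against 84.4, 33.1 and 23.1 in WT, and no direction can be read from it.

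**Figure D4:**
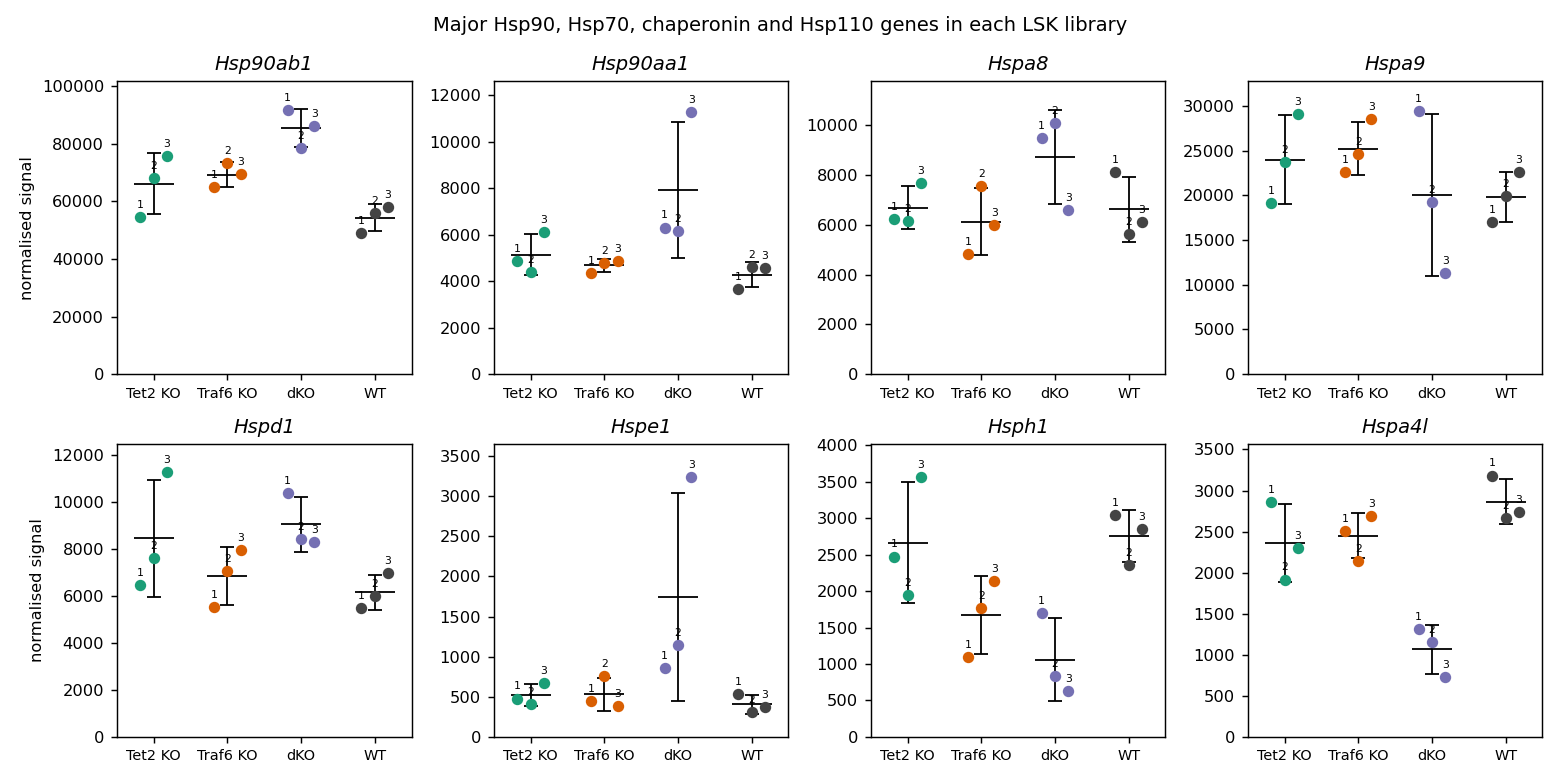
Normalised signal (y axes, from 0) of 8 major heat shock genes in each library of Tet2 KO, Traf6 KO, dKO and WT, with the replicate number beside each point, the mean as a long bar and the SD as short bars (n = 3). dKO lies above WT for Hsp90ab1, Hsp90aa1, Hspd1 and Hspe1 and below it for Hsph1 and Hspa4l, while the groups overlap for Hspa8 and Hspa9.

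The DNAJ genes held 20 of the 31 members called in dKO against WT, 12 higher and 8 lower. They made up 41 of the 61 tested members, and 48.8% of them were called, against 48.3% of all tested genes. Of 25 tested Dnajc genes 10 were higher and 7 lower, of 12 Dnajb genes 2 higher and 0 lower, and of 4 Dnaja genes 0 higher and 1 lower. With the trend removed 6 of the 12 Dnajb genes were called, 4 higher and 2 lower, against a background of 25.3% of genes called. Dnajb12 and Dnajb14, not called before (0.50 and -0.05, adjusted p 0.137 and 0.913), were higher then (1.019 and 1.503, adjusted p 0.0178 and 0.00656). Dnajb1, the heat-induced class B partner, had 5657, 7102 and 7444 units in dKO, against 5972, 5333 and 4882 in WT, with overlap (0.32 ± 0.20, adjusted p 0.198). Dnaja1, its class A counterpart, had 2816, 3299 and 3853 units in dKO, against 2761, 2670 and 2784 in WT, with all dKO libraries above WT (0.27 ± 0.21, adjusted p 0.303). With the trend removed these became 0.72 (adjusted p 0.0276) and 1.35 (adjusted p 0.00621), so both passed with that trend removed, and with the longest-transcript trend removed Dnaja1 passed (1.19, adjusted p 0.00803) and Dnajb1 did not (0.50, adjusted p 0.0743).

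Dnajc2, which holds Hsp70 at the ribosome exit, had 9040, 9448 and 11190 units in dKO, against 3641, 4219 and 4624 in WT. Every dKO library lay above every WT library (1.25 ± 0.22, adjusted p 0.00112), and the change was 0.92 with the trend removed (adjusted p 0.0114). Dnajc8 had 10428, 13170 and 19802 units in dKO, against 5254, 4803 and 4706 in WT (1.51 ± 0.26, adjusted p 0.000895), and 0.66 with the trend removed (adjusted p 0.0144). Dnajc9 had 10116, 12622 and 17643 units in dKO, against 5792, 5375 and 5663 in WT (1.23 ± 0.23, adjusted p 0.00142), and 0.51 with the trend removed (adjusted p 0.0355), though 0.42 and not called with the longest-transcript trend removed (adjusted p 0.0886). These groups did not overlap either, and dKO 3 was the highest library for all 3 genes. Dnajc17, a J protein tied to splicing, had 411, 368 and 1585 units in dKO, against 197, 153 and 192 in WT (1.78 ± 0.48, adjusted p 0.00881), 1.11 without dKO 3 and 0.56 with the trend removed (adjusted p 0.136).

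Dnajc15, an inner membrane J protein, had 1555, 2153 and 5792 units in dKO, against 1007, 640 and 530 in WT, higher without overlap (1.94 ± 0.44, adjusted p 0.00412). Its principal transcript of 6193 nt is long, and with the trend removed the change was 3.20 (adjusted p 0.00154). Dnajc19, which drives the import motor, had 742, 882 and 2582 units in dKO, against 654, 428 and 360 in WT (1.35 ± 0.44, adjusted p 0.0215). With a principal transcript of 659 nt its change turned to -0.03 once the trend was removed, while with the longest-transcript trend removed it was 1.07 and called (adjusted p 0.0397), and its call was lost without dKO 3 (0.80, adjusted p 0.0717), WT 2 (1.29, adjusted p 0.0653) or WT 3 (1.17, adjusted p 0.0832). Dnaja3, the class A protein of the mitochondrial matrix, had 4914, 3248 and 2933 units in dKO, against 5078, 5328 and 5070 in WT, all below WT yet not called (-0.52 ± 0.26, adjusted p 0.115, and -0.42 with the trend removed).

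J proteins of the endoplasmic reticulum, where they serve the Hsp70 encoded by Hspa5, also differed among themselves. Dnajb11, a soluble partner that binds unfolded clients, had 5289, 5603 and 6766 units in dKO, against 2801, 2808 and 2972 in WT, higher without overlap (1.03 ± 0.20, adjusted p 0.00196), and unchanged at 1.03 with the trend removed. Dnajc10, which reduces disulfides, had 6252, 3673 and 1410 units in dKO, against 6888, 6216 and 6905 in WT. Its call (-1.06 ± 0.39, adjusted p 0.037) was lost in 14 of 19 alternative settings, among them without dKO 3 (-0.48, adjusted p 0.0963) and with the trend removed (-0.34, adjusted p 0.482). Dnajc3 had 6044, 5923 and 5662 units in dKO, against 7072, 6118 and 6637 in WT (-0.17 ± 0.18, adjusted p 0.457), and its change was 0.86 with the trend removed (adjusted p 0.00658). Dnajb9, another soluble partner, had 520, 552 and 359 units in dKO, against 831, 740 and 618 in WT (-0.63 ± 0.27, adjusted p 0.0665), and passed at -0.73 with the trend removed (adjusted p 0.0287). For both genes all dKO libraries lay below all WT libraries.

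Among J proteins of vesicle traffic, Dnajc13, Dnajc5 and Dnajc6 were lower in dKO. Dnajc13, which works with Hsp70 on endosomes, had 352, 360 and 402 units in dKO, against 2317, 2610 and 2989 in WT. The dKO libraries lay close together and far below WT (-2.82 ± 0.37, adjusted p 0.000326), and at -1.33 with the trend removed the gene still passed (adjusted p 0.00328). Dnajc5, the cysteine string protein of secretory vesicles, had 2699, 1306 and 1290 units in dKO, against 4306, 5943 and 5431 in WT (-1.64 ± 0.29, adjusted p 0.00102). Dnajc6, an auxilin that strips clathrin from vesicles, had 650, 314 and 357 units in dKO, against 930, 1218 and 1405 in WT (-1.48 ± 0.34, adjusted p 0.00421). Neither group overlapped, and with the trend removed the changes were -0.22 (adjusted p 0.441) for Dnajc5 and -0.28 (adjusted p 0.367) for Dnajc6. Dnajc27, a Rab-like GTPase with a J domain, had 529, 176 and 286 units in dKO, against 781, 1117 and 1063 in WT (-1.70 ± 0.36, adjusted p 0.00286), and -0.56 with the trend removed (adjusted p 0.171).

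Of the other named DNAJ genes, Dnajc25 had 574, 698 and 829 units in dKO, against 220, 280 and 202 in WT, higher without overlap (1.58 ± 0.31, adjusted p 0.00197) and at 2.33 with the trend removed (adjusted p 0.000848). Dnajc24, needed for the diphthamide change of elongation factor 2, had 739, 1130 and 3067 units in dKO, against 654, 454 and 385 in WT (1.49 ± 0.44, adjusted p 0.015), 0.91 without dKO 3, not called without WT 3 (1.33, adjusted p 0.0593) and 0.51 with the trend removed. Dnajc4 had 252, 445 and 1650 units in dKO, against 246, 199 and 173 in WT, and its call (1.48 ± 0.54, adjusted p 0.0367) was lost without dKO 3 (0.71, adjusted p 0.132) and without each WT library (1.36 to 1.62, adjusted p 0.0547 to 0.104), and the change was 0.11 with the trend removed. Dnaja4, a class A gene, had 129, 88.7 and 44.7 units in dKO, against 249, 193 and 171 in WT, and its call (-1.33 ± 0.41, adjusted p 0.0183) was lost without dKO 3 (-0.91, adjusted p 0.0501), without WT 1 (-1.18, adjusted p 0.0664) and with the trend removed (-0.995, adjusted p 0.0621). The other called members were Dnajb6 and Dnajc7, higher by 0.89 and 0.71, and Dnajc14 and Dnajc28, lower with -1.10 and -0.91 (adjusted p 0.0138 to 0.0452). Without dKO 3 Dnajc14 was at -0.63, and Dnajc28 at -0.55 was not called (adjusted p 0.147), while Dnajb6 was lost without WT 3 and Dnajc7 without WT 1. With the trend removed Dnajc7 was still called (0.57, adjusted p 0.0465), and Dnajb6, Dnajc14 and Dnajc28 were not (0.23, -0.20 and -0.37, adjusted p 0.475, 0.635 and 0.378).

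Calls differed in how far they rested on the settings. Over 19 alternatives to the test, the scaling, the filter, the length trend and the libraries used, 6 of the 31 calls in dKO against WT held in all. These were Dnajc2, Dnajc8, Dnajc15, Dnajc25 and Dnajb11, higher in dKO, and Dnajc13, lower in dKO, with Dnajb11 singled out after its values were seen. A further 11 were lost with a length and GC trend removed and in no other setting. With Tet2 KO 1 and Traf6 KO 1 left out, the 2 libraries that lay within WT for their targeted gene, 28 members were called. Gene totals do not settle whether the labels of these libraries hold.

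**Figure D5:**
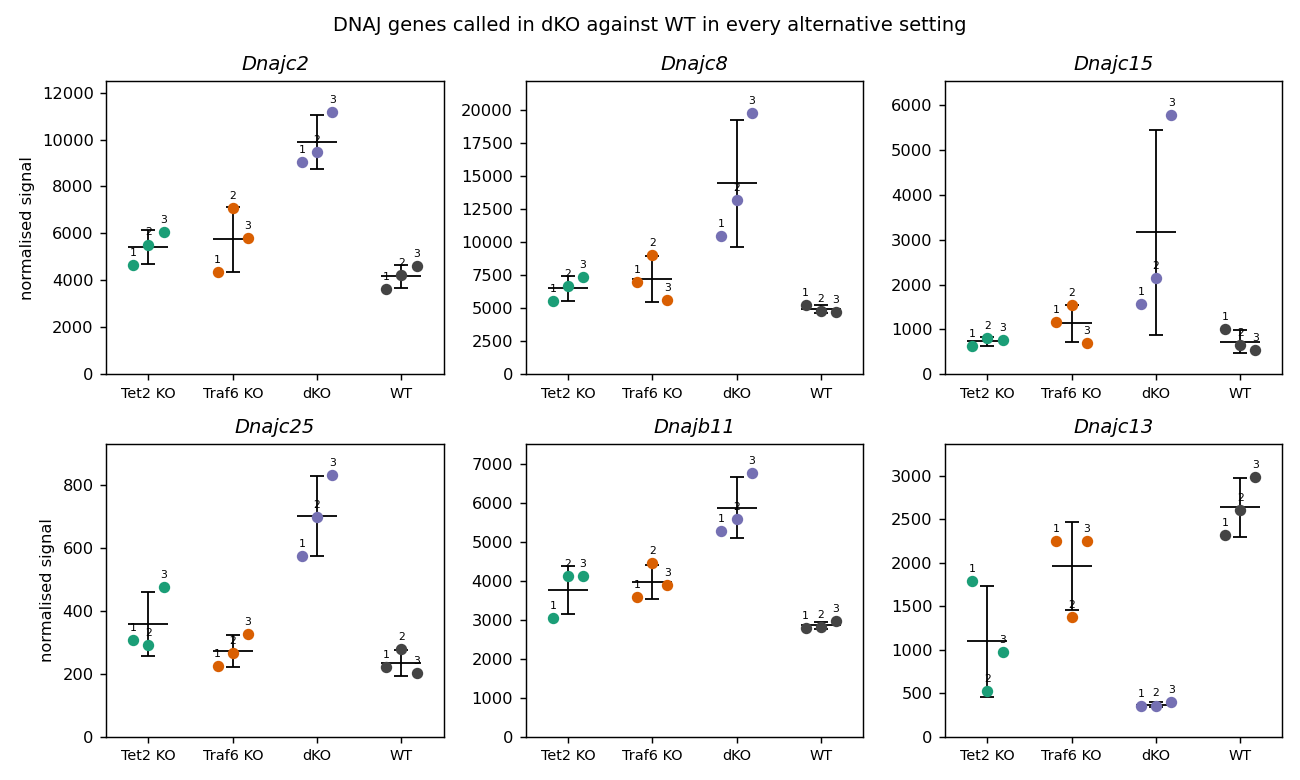
Normalised signal (y axes, from 0) in each library of Tet2 KO, Traf6 KO, dKO and WT for the 6 DNAJ genes called in dKO against WT in all 19 alternatives, with the replicate number beside each point, the mean as a long bar and the SD as short bars (n = 3). dKO lies above the other genotypes for Dnajc2, Dnajc8, Dnajc15, Dnajc25 and Dnajb11 and below them for Dnajc13, whose Tet2 KO libraries stand between dKO and WT.

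The double knockout was also set against each single knockout, with the same dKO libraries in all 3 comparisons. Against Tet2 KO 11 members were higher and 9 lower in dKO, with a background of 35.3% of genes called, 15.5% higher and 19.9% lower, and against Traf6 KO 14 were higher and 13 lower, with a background of 38% of genes called, 17.3% higher and 20.7% lower. The median log2 change of the members was 0.09 against Tet2 KO and 0.30 against Traf6 KO, where all tested genes had -0.12 and 0.02. With equal library totals 6 members were higher and 14 lower against Tet2 KO, and 11 were higher and 13 lower against Traf6 KO. With the principal-transcript trend removed 7 were higher and 0 lower in dKO against Tet2 KO, with 11.2% of genes called, 906 higher and 630 lower. Against Traf6 KO there were 8 higher and 2 lower, with 15.4% of genes called, 931 higher and 1179 lower. With the longest-transcript trend removed there were 6 higher and 3 lower against Tet2 KO, with 15.4% of genes called, 1236 higher and 866 lower. Against Traf6 KO there were then 9 higher and 5 lower, with 18.8% of genes called, 1210 higher and 1356 lower. Against Tet2 KO 0 members were called with Tet2 KO 1 and Traf6 KO 1 left out, when 56 of all genes were called, 2 without Tet2 KO 1 alone, 13 without Tet2 KO 2 and 32 without dKO 1. Against Traf6 KO 6 were called with both left out, 9 without Traf6 KO 1 alone, 9 without Traf6 KO 3 and 15 without dKO 3. Apart from the 56, all-gene counts for equal totals and for libraries left out are not given here. The member counts of those fits cannot be set against all genes.

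Members called in the same direction in all 3 dKO comparisons numbered 17, of which 10 were higher and 7 lower. This was 27.9% of the 61 tested, against 26.5% of all tested genes called alike in all 3, 11.3% higher and 15.1% lower. Dnajc13, at 352 to 402 units in dKO, had 1789, 529 and 978 units in Tet2 KO and 2253, 1382 and 2253 in Traf6 KO. It was lower in dKO than in both, with a log2 change of -1.39 ± 0.37 against Tet2 KO (adjusted p 0.0157) and -2.37 ± 0.37 against Traf6 KO (adjusted p 0.00208). The first was lost without Tet2 KO 1 (-0.95, adjusted p 0.0719) and with the trend removed (-0.46, adjusted p 0.242), and the second held in all 19 alternatives. Dnajc25, at 574 to 829 units in dKO, had 308, 290 and 474 units in Tet2 KO and 224, 265 and 326 in Traf6 KO. It was higher in dKO by 0.99 ± 0.31 against Tet2 KO (adjusted p 0.0279) and by 1.37 ± 0.31 against Traf6 KO (adjusted p 0.00757). The call against Traf6 KO held in all 19 alternatives, and that against Tet2 KO was lost without Tet2 KO 1, Tet2 KO 2, dKO 2 or dKO 3 (0.86 to 0.98, adjusted p 0.0628 to 0.0938) and kept in 11 of 19 alternatives.

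Among the other genes of the 17, Dnajc2 had 4647, 5524 and 6073 units in Tet2 KO and 4342, 7087 and 5788 in Traf6 KO, all under the lowest dKO library at 9040. It was higher in dKO by 0.87 ± 0.22 against Tet2 KO (adjusted p 0.0138) and by 0.81 ± 0.22 against Traf6 KO (adjusted p 0.0173). These calls were lost without Tet2 KO 1 (0.77, adjusted p 0.0649) and without Traf6 KO 1 (0.62, adjusted p 0.0734), and with the trend removed (0.59 and 0.47, adjusted p 0.101 and 0.17). Dnajc15 had 626, 810 and 761 units in Tet2 KO and 1162, 1532 and 705 in Traf6 KO, against which dKO was higher by 1.88 ± 0.44 (adjusted p 0.0112) and 1.32 ± 0.44 (adjusted p 0.0342). The call against Traf6 KO was lost without dKO 3 (0.76, adjusted p 0.122), Traf6 KO 1 (1.37, adjusted p 0.0727) or Traf6 KO 3 (1.01, adjusted p 0.134), and that against Tet2 KO without Tet2 KO 1 (1.77, adjusted p 0.0559). Hspe1 had 478, 411 and 671 units in Tet2 KO and 448, 760 and 379 in Traf6 KO, against 853 to 3237 in dKO, and was higher in dKO by 1.53 ± 0.46 and 1.54 ± 0.46 (adjusted p 0.0232 and 0.0226). Without dKO 3 neither passed (0.96 and 0.97, adjusted p 0.0682 and 0.0686), nor did the change against Tet2 KO without Tet2 KO 1 or Tet2 KO 2 (1.48 and 1.37, adjusted p 0.0797 and 0.0683), that against Traf6 KO without Traf6 KO 1 or Traf6 KO 3 (1.45 and 1.33, adjusted p 0.0684 and 0.0857), or either with the trend removed (0.24 and 0.37). Hspa4l, at 733 to 1316 units in dKO, had 1916 to 2862 in Tet2 KO and 2147 to 2692 in Traf6 KO, and was lower in dKO, with -1.17 ± 0.26 and -1.24 ± 0.26 (adjusted p 0.00947 and 0.00475), at -0.26 and -0.20 and not called with the trend removed. The call against Tet2 KO was lost without Tet2 KO 1 (-1.02, adjusted p 0.051).

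Against Traf6 KO both genes of the inducible pair were higher in dKO. The log2 change in dKO against Traf6 KO was 3.82 ± 1.21 for Hspa1a (adjusted p 0.0286) and 3.58 ± 1.21 for Hspa1b (adjusted p 0.0348). Both rested on dKO 3, without which they were 2.50 (adjusted p 0.115) and 2.16 (adjusted p 0.147), and Hspa1a was also lost without Traf6 KO 1 or Traf6 KO 3 and Hspa1b without Traf6 KO 1 or Traf6 KO 2 (2.47 to 3.92, adjusted p 0.0639 to 0.117). Hspa1b was lower in dKO against Tet2 KO (-4.17 ± 1.21, adjusted p 0.021), and this was lost without Tet2 KO 1 (-3.14, adjusted p 0.105) or dKO 2 (-3.69, adjusted p 0.0632).

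Each single knockout was set against WT to read the effect of 1 gene. In Tet2 KO 0 of 61 members were called by limma, with a background of 0.413% of genes called, and 1 member, Dnajc13, had an unadjusted p under 0.05. Dnajc13 had 1789, 529 and 978 units in Tet2 KO, against 2317, 2610 and 2989 in WT, all below WT (-1.43 ± 0.37, adjusted p 0.151). It was called lower without Tet2 KO 1 (-1.87, adjusted p 0.0251) and by DESeq2 (-1.26, adjusted p 0.0468), while edgeR called 0 members. Hspa1b had 4161, 547 and 432 units in Tet2 KO, against 770, 417 and 497 in WT, and Hspa1a had 1419, 290 and 222 units in Tet2 KO, against 271, 157 and 209 in WT. Tet2 KO 1 alone was far above WT for both (0.87 ± 1.21, adjusted p 1, and 1.12 ± 1.21, adjusted p 0.995), and the same library held 66051 units of immediate early genes, against 31868 and 18162 in Tet2 KO 2 and Tet2 KO 3. The part of this difference in the Hspa1a and Hspa1b values was not tested.

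In Traf6 KO 1 of 61 members was called, with a background of 0.271% of genes called and 0.192% lower, and it was Hspa1b, lower in Traf6 KO. An unadjusted p under 0.05 was reached by 5 members. Hspa1b had 6.37, 0 and 12.4 units in Traf6 KO, against 770, 417 and 497 in WT. In Traf6 KO 2, the library at 0, 1 read was worth 1.16 units. All 3 Traf6 KO libraries lay far below all WT libraries, with a log2 change of -6.88 ± 1.21 (limma adjusted p 0.0305). DESeq2 also called it (-6.47, adjusted p 0.00121), and edgeR did not (-6.40, adjusted p 0.155). The call was lost without Traf6 KO 1 (-7.21, adjusted p 0.0564), Traf6 KO 2 (-5.77, adjusted p 0.135), WT 1 (-6.63, adjusted p 0.222), WT 2 (-7.07, adjusted p 0.142) or WT 3 (-6.94, adjusted p 0.148), while the change stayed between -7.21 and -5.77. Hspa1a had 0.91, 29.0 and 0.89 units in Traf6 KO, against 271, 157 and 209 in WT, again far below WT in all 3 libraries (-5.45 ± 1.21, adjusted p 0.112), and passed without Traf6 KO 2 (-6.78, adjusted p 0.0286). Traf6 KO 1, whose Traf6 level was that of WT, was as low for the pair as Traf6 KO 3.

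No other inducible member and no neighbour of the pair was called in Traf6 KO. Of 13 tested members on the list of known HSF1 targets, 0 were higher and 1, Hspa1b, lower in Traf6 KO against WT. In dKO against WT 3 were higher (Hspe1, Hsp90aa1 and Hsp90ab1) and 3 lower (Hspa1b, Hspa4l and Hsph1). This was 46.2% called, beside 48.3% of all tested genes, and Hsp90ab1 is made at all times. Dnajb1 had 5957, 5160 and 4827 units in Traf6 KO, against 5972, 5333 and 4882 in WT (-0.02 ± 0.20, adjusted p 0.985). Hsph1 had 1093, 1771 and 2143 units in Traf6 KO, against 3048, 2357 and 2856 in WT, all below WT but not called (-0.77 ± 0.37, adjusted p 0.655). Within 100000 bases of the pair, 13 other genes were tested, and 0 of them were called in Traf6 KO against WT, with a median log2 change of 0.07, or in Tet2 KO against WT, with a median of 0.11. Immediate early genes summed to 20247, 28208 and 17084 units in Traf6 KO, against 26355, 28335 and 17470 in WT, and 0 of 15 were called by limma, with 2 at an unadjusted p under 0.05. Markers of mast cells and basophils did differ, with sums of 3581 to 9376 in Traf6 KO and 1360 to 2214 in WT, and 2 of 6 tested higher, and their part was not tested.

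Whether the change on losing Traf6 differed between Tet2 KO and WT cells was read from the interaction, the dKO change against Tet2 KO less the Traf6 KO change against WT. By limma 0 of 61 members were called, with a background of 0.221% of genes called, while 7 had an unadjusted p under 0.05, the smallest adjusted p being 0.21, for Dnajc27. edgeR and DESeq2 also called 0. Sex and genotype cannot be told apart here either. Without dKO 1 there were 7 calls, higher for Dnajc4 and Dnajc9 and lower for Dnajc5, Dnajc10, Dnajc16, Dnajc27 and Hspa4l. The share of all genes called in that fit is not given here, so these calls cannot be set against all genes.

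A list of chaperones and related genes outside the Hsp and DNAJ names, heat shock factors among them, gave more rises than falls in dKO. Of 53 tested genes of the list (57 in the table) 27 were higher and 8 lower in dKO against WT. Over all tested genes 21.9% were higher and 26.5% lower. The median log2 change was 0.65 for the list beside -0.09 over all genes. With the principal-transcript trend removed 16 of the list were higher and 2 lower. The background was 25.3% of genes called, 1996 higher and 1463 lower. In the cytosolic chaperonin TRiC, which folds actin and tubulin, 6 of 8 subunits were higher and 0 lower, and 3 were higher with the trend removed. All 5 tested subunits of prefoldin, which hands chains to TRiC, were higher, with a median of 1.74, and with the trend removed 3 were, with a median of 0.76. Of 15 Hsp90 cofactors 8 were higher and 1 lower, and of 12 Hsp70 cofactors 5 were higher and 3 lower, which became 5 and 0 and 3 and 0 with the trend removed. Of 3 tested heat shock factors and regulators 1 was higher and 1 lower, and of 10 other stress genes tested 2 were higher and 3 lower. By limma 0 of the list were called in either single knockout against WT, with 2 at an unadjusted p under 0.05 in each.

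Single genes of this list, chosen for a small p in a comparison with WT, were as follows. Bag1, an exchange factor of Hsp70, had 13352, 16588 and 27096 units in dKO, against 7369, 5877 and 5876 in WT, higher without overlap (1.52 ± 0.28, adjusted p 0.0013) and at 0.35 with the trend removed. Gak, the auxilin of most tissues and so a close counterpart of Dnajc6, had 2492, 1097 and 697 units in dKO, against 5099, 6962 and 6292 in WT. It was lower without overlap (-2.29 ± 0.36, adjusted p 0.000651) and still called at -1.12 with the trend removed (adjusted p 0.00993). Bag6 had 1142, 956 and 1170 units in Tet2 KO, against 1604, 3019 and 2097 in WT (-0.996 ± 0.311, adjusted p 0.252), and Chordc1 had 3080, 2831 and 3723 units in Traf6 KO, against 5539, 4603 and 4149 in WT (-0.57 ± 0.20, adjusted p 0.495). Hsf1, the gene of HSF1, was added after its values were seen. It had 1465, 1506 and 1346 units in dKO, against 1895, 2189 and 2114 in WT, all below WT. Of the 3 tested heat shock factors and regulators, 1 was lower in dKO against WT with the principal-transcript trend removed. With the longest-transcript trend removed 0 of them were lower.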

How the data were processed

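Total RNA of sorted LSK cells was sequenced in 12 libraries, amplified with a SMART-Seq low-input kit, which does not mark strand, so reads of overlapping antisense genes cannot be told apart. The authors deposited a normalised signal for 37187 genes, whole reads divided by a size factor per library. Per the submitters' processing notes, bcl2fastq, STAR, featureCounts and DESeq2 were used with mm10 and GRCm38, and versions, settings, annotation and strand setting are not named in the sources used here. Dividing the deposited signal by its step gave whole reads for 100% of values (tolerance 1e-06). Replicates differed beyond counting noise (chi-square of 18.3 to 574 per degree of freedom).

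The 14045 genes that reached 10 units in 3 or more libraries were tested with limma 3.58.1 (R 4.3.3), trend and robust, on log2(value + 1), with all 12 libraries in 4 groups. Adjusted p-values are Benjamini-Hochberg over all tested genes of a comparison, with a threshold of 0.05, two-sided. Fold changes are on that log scale and understate low genes. On the recovered reads edgeR 4.0.16 called 43, 28, 6539, 4881, 5171 and 27 genes and DESeq2 1.42.0 called 286, 167, 7478, 6122, 6372 and 227 (Tet2 KO, Traf6 KO and dKO against WT, dKO against Tet2 KO and Traf6 KO, interaction). Scripts were tested on simulated data.

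Positions, length and GC content were taken from the GENCODE M21 annotation of GRCm38, where 30478 genes were found, 28387 by symbol and 2091 by synonym; 13677 tested genes (97.4%) had a length. The principal transcript is the longest with APPRIS's highest rank. Loess trends (span 0.4) on length and GC content were removed per library, and the trend on the principal transcript was chosen after seeing the data. In each comparison 13 members were always named, with up to 10 largest rises and 10 largest falls among called members whose mean was 50 or more in the group where they were higher, and the 2 genes of smallest p among other chaperones against WT, of which 1 is not reported here. Members named beyond this (Hspa4, Hspb8, Hspb9, Hspbp1, Dnaja3, Dnajb6, Dnajb9, Dnajb11, Dnajb12, Dnajb14, Dnajc3, Dnajc7, Dnajc9, Dnajc10, Dnajc14 and Dnajc28 in dKO against WT, Dnajc13 in the single knockouts, and those of the interaction) were chosen after their values were seen. The members and lists were chosen with earlier results of these data known.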

Additional observations from a re-analysis of the deposited data

How the results depend on the processing

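Equal library totals, a median log2 ratio of 0, a pseudocount of 5, edgeR and DESeq2 kept the number of members called in dKO against WT (31) at 30 to 33. With the longest-transcript trend removed, 20 members were called in dKO against WT, 9 in dKO against Tet2 KO (20 before) and 14 in dKO against Traf6 KO (27 before), and 19, 10 and 14 with the replicate block added. With the principal-transcript trend removed these were 20, 7 and 10, and 22, 9 and 10 with the block. In fits of the compared groups alone 0 were called in dKO against Tet2 KO and 4 against Traf6 KO, without the filter 16 in dKO against Traf6 KO, and with Tet2 KO 1 and Traf6 KO 1 left out 1 in Tet2 KO against WT, 0 in Traf6 KO against WT, 0 in dKO against Tet2 KO and 6 in dKO against Traf6 KO. DESeq2 called 1 member in Tet2 KO against WT, and edgeR 0 in Traf6 KO against WT. Leaving out each library in turn gave 0 to 1 calls in Tet2 KO against WT, 0 to 1 in Traf6 KO against WT, 22 to 34 in dKO against WT, 2 to 32 in dKO against Tet2 KO, 9 to 32 in dKO against Traf6 KO and 0 to 7 in the interaction. Shares of all genes called in these leave-out fits are not given here. With the principal-transcript trend removed, with or without the block, Dnajc19 turned to -0.033 in dKO against WT and -0.041 in dKO against Tet2 KO, and Hspa4l to 0.013 in dKO against WT. The cause was not tested, except that fewer samples enter the fits of groups alone. Of 2459 alternative values of named members, 1955 kept their call and direction, 397 lost the call, 25 gained one, 76 changed sign without a call and 6 reversed. The replicate numbers share no stated animal or day, and deviations of same-numbered libraries correlated at -0.177 to 0.172, with 0 to 3 of 6 libraries closest to their own number, so pairing was not assumed. The replicate block alone gave 0, 1, 29, 18, 24 and 0 calls in Tet2 KO, Traf6 KO and dKO against WT, dKO against Tet2 KO and Traf6 KO, and the interaction. Reads per library limit genes of a few units, such as Hspb9.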
